A study of Mus musculus with 6 samples.

Results

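Mitotic cell cycle and replication genes were examined as a set of 47 genes in whole ovaries of mice at 1 dpp (days post partum). The set was listed by gene function and matched by symbol, and all 47 genes were found among the 47122 gene models of the table. In the cKO (conditional knockout) ovaries, Bcas2, which encodes a subunit of the PRP19 splicing complex, was deleted in oocytes (3 samples). The WT (wild type) ovaries came from mice of the same age (3 samples). Not given in the sources used here: the Cre driver, the exons removed, the strain, and whether a sample was 1 animal or a pool. The p-values therefore cover sample-to-sample spread that could be technical. Of the 47 genes, 11 act at the entry into S phase or in DNA synthesis, 34 act in chromosome condensation, mitosis or cytokinesis, and 2, Ccna2 and Mki67, are present from S phase to mitosis. Values are FPKM, fragments scaled to gene length and to library size, as the authors deposited them.

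Dividing cells express these genes in waves. E2F transcription factors switch on replication genes late in G1, and the DREAM and MuvB complexes with B-MYB and FOXM1 control the genes of G2 and mitosis through a promoter element called CHR (cell cycle genes homology region), often beside CCAAT boxes bound by NF-Y. At 1 dpp most oocytes are in or near the arrest at the end of meiotic prophase and do not replicate DNA, whereas pregranulosa, stromal, endothelial and surface epithelial cells can still divide. Mouse oocytes also store transcripts of some spindle and checkpoint genes. In a bulk ovary, fewer cells of a type and less RNA per cell cannot be told apart.

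Many, but not all, of the promoters found for the set carried letters that these controls are known to read. RefSeq promoters (GRCm38.p6, 250 bases before to 50 after each start) matched 39 of the 47 genes by gene identifier, and a gene was counted when any of its listed starts held a motif on either strand. The CHR letters TTTGAA were in 24 of 29 M-phase genes (82.8%) and in 1 of 9 S-phase genes (11.1%), and in 20.2% of all 27025 genes with a promoter and 13.7% of the tested protein-coding ones. Within 50 bases on either side of the start they were in 22 of the 29 M-phase genes and 0 of the 9 S-phase genes, against 3.67% of the tested protein-coding genes. The E2F cores TTCCCGC or TTGGCGC were in 5 of 9 S-phase genes (55.6%) and 3 of 29 M-phase genes (10.3%), against 7.79% of all genes and 14.4% of the tested protein-coding ones. CCAAT boxes were in 7 of 9 S-phase and 22 of 29 M-phase genes, against 41.1% of all genes. A CCAAT box read on the other strand shares letters with the second E2F core where they meet, so a stretch can count for both. These matches are letters in a window and do not show that a factor was bound.

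The 250 bases before the start are shown for the most highly expressed genes with the motifs, since the CHR letters and E2F cores were counted at different shares in M-phase and S-phase genes, a difference that was not tested. CCAAT boxes had nearly the same share in both lists. Capitals mark E2F cores on either strand in the pair of S-phase genes.
Mcm6 (chr1:128359706-128359955, minus strand): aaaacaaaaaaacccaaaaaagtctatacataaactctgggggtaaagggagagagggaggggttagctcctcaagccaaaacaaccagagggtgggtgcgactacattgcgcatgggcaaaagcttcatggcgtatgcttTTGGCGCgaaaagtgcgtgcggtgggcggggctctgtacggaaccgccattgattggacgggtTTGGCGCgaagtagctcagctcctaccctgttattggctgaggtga
Mcm5 (chr8:75109259-75109508, plus strand): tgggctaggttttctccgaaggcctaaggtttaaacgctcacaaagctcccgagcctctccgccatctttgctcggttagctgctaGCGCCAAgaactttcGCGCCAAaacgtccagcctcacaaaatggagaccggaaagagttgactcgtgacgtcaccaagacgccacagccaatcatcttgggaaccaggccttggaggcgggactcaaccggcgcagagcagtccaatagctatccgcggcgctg
Capitals mark CCAAT boxes and CHR letters on either strand in the M-phase genes.
Ube2c (chr2:164769679-164769928, plus strand): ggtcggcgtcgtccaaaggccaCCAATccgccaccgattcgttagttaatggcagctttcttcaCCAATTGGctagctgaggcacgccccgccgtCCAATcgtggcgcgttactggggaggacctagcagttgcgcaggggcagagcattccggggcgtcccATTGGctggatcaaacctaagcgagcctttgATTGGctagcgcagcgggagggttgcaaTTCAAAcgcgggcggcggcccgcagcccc
Ect2 (chr3:27153855-27154104, minus strand): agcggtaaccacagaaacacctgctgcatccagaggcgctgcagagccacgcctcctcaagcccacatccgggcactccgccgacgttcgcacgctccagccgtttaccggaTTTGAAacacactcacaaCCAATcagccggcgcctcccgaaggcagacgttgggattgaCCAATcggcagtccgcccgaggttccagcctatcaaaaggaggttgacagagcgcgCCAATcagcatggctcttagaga
Prc1 (chr7:80294226-80294475, plus strand): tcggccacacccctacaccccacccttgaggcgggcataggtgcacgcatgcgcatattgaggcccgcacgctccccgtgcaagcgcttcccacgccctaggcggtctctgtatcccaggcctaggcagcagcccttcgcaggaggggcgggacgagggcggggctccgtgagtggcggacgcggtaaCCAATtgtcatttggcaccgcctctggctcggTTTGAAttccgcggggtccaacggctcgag

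Each library held between 16800421 and 19565275 reads recovered from the FPKM values, and a member rested on 107 to 7323 reads in a library. Bcas2 was at 18.9, 21.9 and 18.3 FPKM in the cKO ovaries, against 54.5, 37.5 and 35.7 FPKM in the WT ovaries, with no overlap (exact permutation p = 0.1, the smallest that 3 against 3 allows). Its log2 fold change was −1.05 (95% interval −1.46 to −0.64), with an unadjusted limma p of 0.0005. After adjustment over all tested genes limma did not call it either (adjusted p = 0.955). A count of 0 calls at the adjusted limit therefore says little about differences of that size or smaller. One label line mentions granulosa cells while the others give ovary; all 10 oocyte markers and all 9 pregranulosa markers passed the filter on low values, Nlrp5 at 273 and Foxl2 at 105 FPKM on average. WT replicate 1 stood apart by its stromal, endothelial and pericyte genes, and cKO replicate 2 by its erythroid genes. For the set, counts of members and list means are given with and without these libraries. Further cell cycle genes outside the set are given from the fit on all libraries only.

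No member passed the test for a difference between the groups. All 47 were among the 14589 tested genes. With limma and an adjusted p under 0.05, 0 of 47 members were called in either direction, where 0% of the tested genes were called, and the adjusted p of the members lay between 0.955 and 0.996. At an unadjusted p under 0.05 there were also 0 members, where 1.89% of the tested genes were higher and 1.14% lower in cKO, and voom on recovered reads also gave 0 members at both limits. Log2 fold changes, on the log2(FPKM + 1) scale, ran from −0.26 (Aurkb) to 0.28 (Ube2c), with a median of −0.05 beside −0.01 over all tested genes. The estimate was below 0 for 31 members and above 0 for 16, where 51.3% of the tested genes were below 0. For all 47 members the 95% interval lay inside −1 to 1, so a doubling or halving on that scale lay outside it, and for 30 it lay inside −0.5 to 0.5. The shares of tested genes with intervals inside these bounds were 90.01% and 54.3%.

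**Figure D1:**
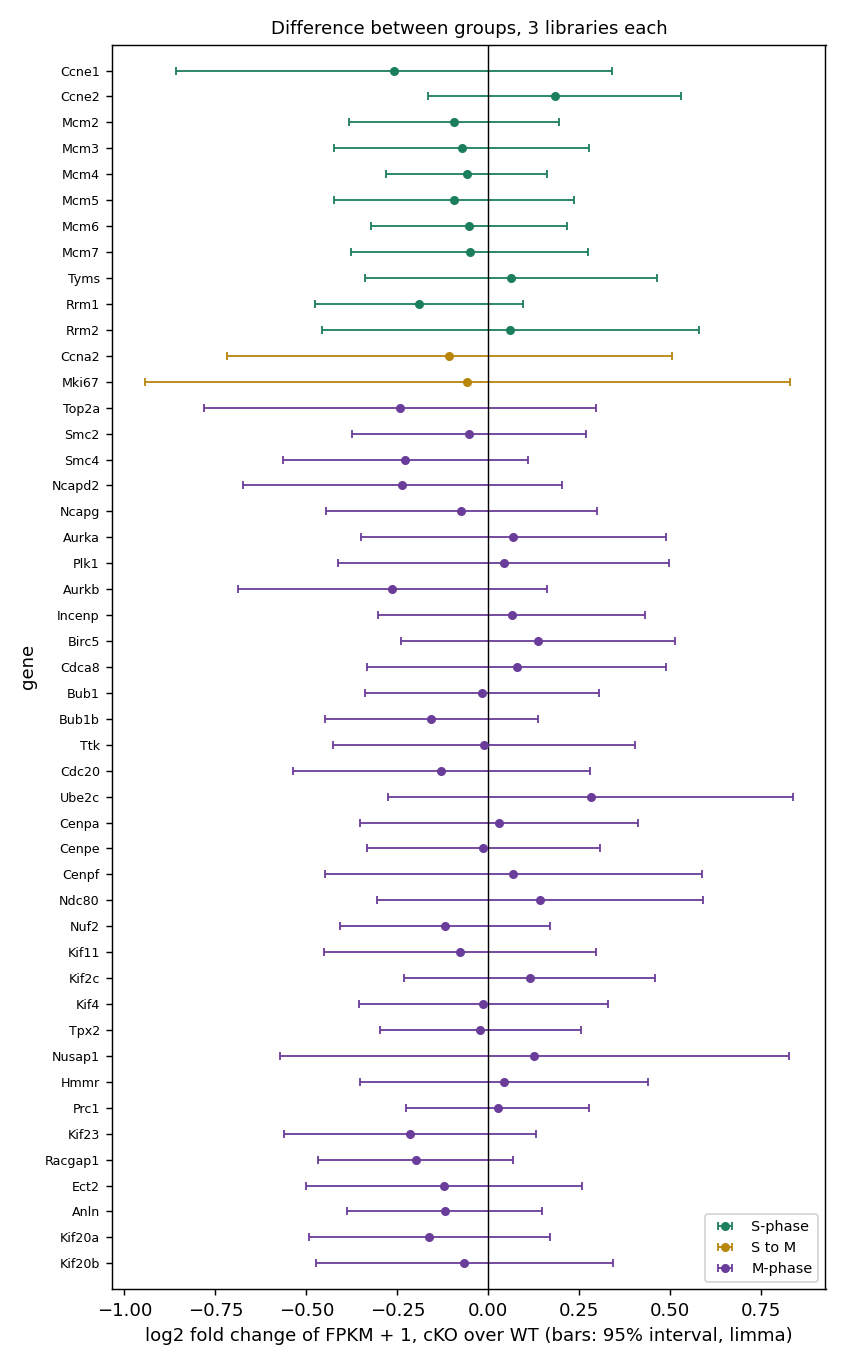
Log2 fold change of each of the 47 genes, cKO over WT, on the horizontal axis, with S-phase genes at the top and M-phase genes at the bottom; points are limma estimates from 3 libraries a group and bars are 95% intervals. Every interval crosses 0 and lies inside −1 to 1, and the widest belong to Mki67, Nusap1, Ccna2 and Ccne1.

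Groups did not overlap for 1 member. This was Smc4, an ATPase of condensin that compacts chromosomes, at 33.8, 34.02 and 34.4 FPKM in the cKO ovaries, against 34.6, 37.2 and 49.9 FPKM in the WT ovaries, and the lowest WT value lay just above the highest cKO value. Its log2 fold change was −0.23 (95% interval −0.57 to 0.11). No member was higher in all cKO libraries than in all WT libraries. Among all tested genes, 3.67% were lower without overlap and 4.2% higher without overlap, so 1 of 47 members is no more than the background.

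**Figure D2:**
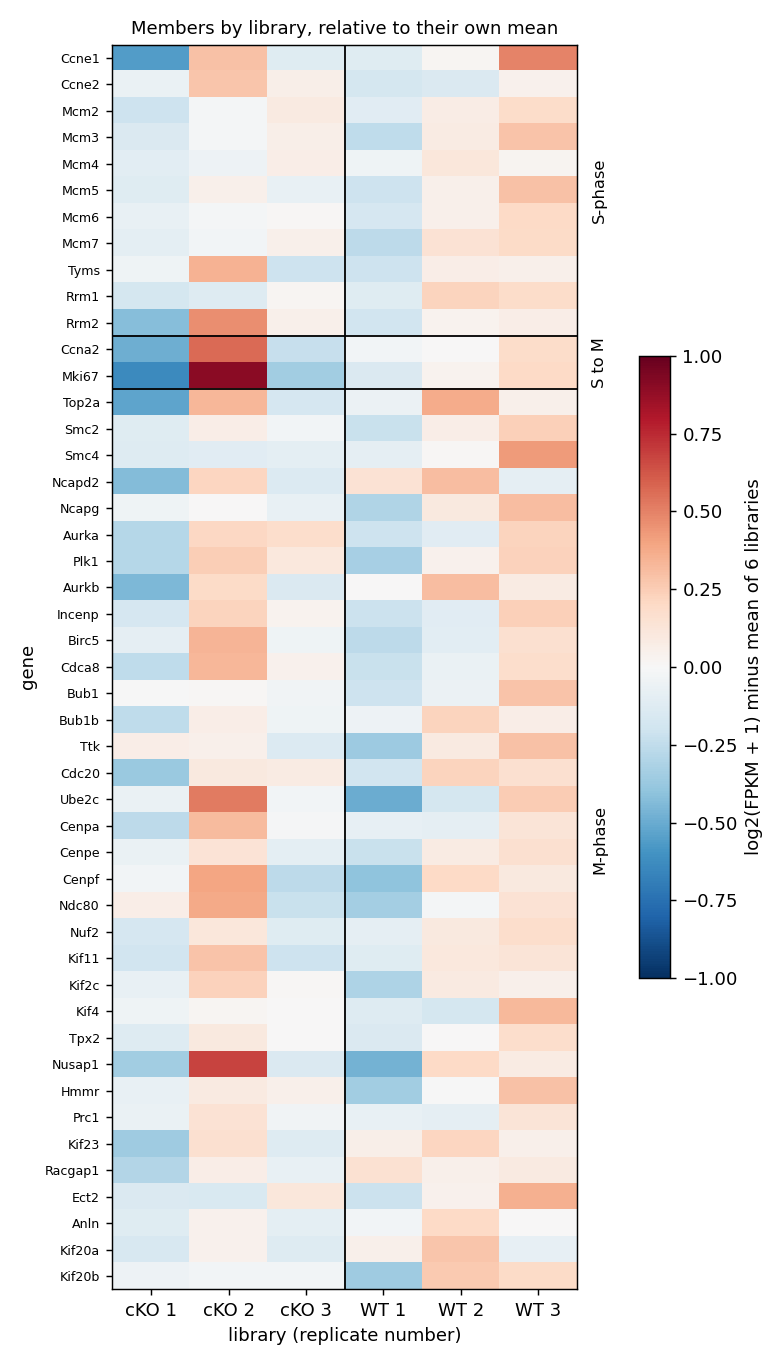
Level of each gene (rows) in each library (columns, cKO left and WT right) as log2(FPKM + 1) minus the gene's mean over the 6 libraries, red above and blue below that mean. The columns of cKO replicate 1 and WT replicate 1 are mostly blue and that of WT replicate 3 mostly red, in all blocks alike. The column of cKO replicate 2 is mostly red in the S to M and M-phase blocks. In the S-phase block it is below the mean for Rrm1 and for all MCM genes except Mcm5.

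The G1/S cyclins activate CDK2 at the start of S phase and were the lowest S-phase genes. Ccne1 (cyclin E1) was at 3.15, 6.47 and 4.61 FPKM in the cKO ovaries, against 4.61, 5.18 and 7.59 FPKM in the WT ovaries. The groups overlapped, cKO replicate 1 was lowest and WT replicate 3 highest, and the log2 fold change was −0.26 (95% interval −0.86 to 0.34). Ccne2 (cyclin E2) was at 2.38, 3.30 and 2.69 FPKM in the cKO ovaries, against 2.13, 2.21 and 2.66 FPKM in the WT ovaries, with overlapping groups and a log2 fold change of 0.18 (95% interval −0.17 to 0.53). It overlaps Ints8, a gene on the other strand with a mean of 15.9 FPKM, and since strand use in the counting is not known, reads of both cannot be told apart.

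The 6 subunits of the MCM helicase, the ring that unwinds DNA at replication forks, were expressed at similar levels. Their means over the 6 libraries ran from 25.8 FPKM for Mcm4 to 40.9 FPKM for Mcm6, and within a library the highest subunit was 1.52 to 1.81 times the lowest. Mcm6 was at 38.8, 40.3 and 41.1 FPKM in the cKO ovaries, against 36.1, 42.4 and 46.9 FPKM in the WT ovaries. Mcm2 was at 28.5, 32.7 and 35.3 FPKM in the cKO ovaries, against 30.5, 34.9 and 37.8 FPKM in the WT ovaries. In both genes the groups overlapped and WT replicate 3 was the highest library. All 6 subunits had estimates slightly below 0, between −0.09 and −0.05, and stayed below 0 under all 4 other scalings, though none passed the test. These scalings reuse the same libraries, and WT replicate 3 was the highest one for every subunit except Mcm4. For the whole list of 11 S-phase genes, which holds these 6, the difference of list means without that library, cKO minus WT, was 0.03. The value for the 6 subunits alone is not given here. The mean log2 level of the 6 subunits was 4.95, 5.06 and 5.11 in the cKO libraries, against 4.90, 5.16 and 5.27 in the WT libraries. That difference of −0.07 was smaller than the WT SD of 0.19. Mcm3, Mcm4, Mcm5 and Mcm7 had log2 fold changes of −0.07, −0.06, −0.09 and −0.05.

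Enzymes of DNA precursor supply differed in which library was highest. Rrm1, the large subunit of ribonucleotide reductase, which makes deoxyribonucleotides, was at 31.2, 32.3 and 35.8 FPKM in the cKO ovaries, against 32.5, 41.4 and 40.3 FPKM in the WT ovaries. WT replicates 2 and 3 were above every cKO library and WT replicate 1 was among them, with a log2 fold change of −0.19 (95% interval −0.48 to 0.09). Rrm2, the small subunit whose supply limits the enzyme in S phase, was at 16.5, 31.4 and 23.3 FPKM in the cKO ovaries, against 19.6, 23.1 and 23.5 FPKM in the WT ovaries. Here cKO replicate 2 was the highest of the 6 and cKO replicate 1 the lowest, so the spread inside the cKO group covered the whole WT range. Tyms, which makes thymidylate, averaged 6.01 ± 1.42 FPKM in cKO and 5.65 ± 0.683 FPKM in WT (SD, n = 3 each). The table lists Tyms with a gene length of 7450 bases, which sets the scale of its FPKM.

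Mki67 and Ccna2 had the widest ranges inside the cKO group, 3.06 and 2.16 times from lowest to highest, beside 1.28 and 1.17 times inside the WT group. Mki67 encodes Ki-67, the surfactant of mitotic chromosomes widely used to mark proliferating cells, and its gene model is chromosome 7, bases 135291513 to 135318286, minus strand of GRCm39. It was at 11.9, 36.4 and 14.7 FPKM in the cKO ovaries, against 17.1, 19.5 and 21.9 FPKM in the WT ovaries. The cKO group thus held both the highest library, replicate 2, and the 2 lowest, replicates 1 and 3. The log2 fold change was −0.06 (95% interval −0.94 to 0.83). Ccna2 (cyclin A2), which drives CDK2 and CDK1 through S phase into mitosis, was at 12.5, 26.9 and 15.1 FPKM in the cKO ovaries, against 17.5, 18.01 and 20.5 FPKM in the WT ovaries, with all 6 libraries in the same order as for Mki67. Its log2 fold change was −0.11 (95% interval −0.72 to 0.50). Ccna2 overlaps Exosc9 (mean 30.3 FPKM) on the other strand.

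Chromosome structure genes all had estimates below 0, under each scaling tried, each on the same libraries. The 5 genes ran from −0.24 to −0.05, and 0 of 5 had an unadjusted limma p under 0.05. Top2a, the topoisomerase that untangles sister chromatids, was at 17.5, 32.6 and 22.7 FPKM in the cKO ovaries, against 24.5, 33.5 and 26.7 FPKM in the WT ovaries, and only cKO replicate 2 reached into the WT range. Ncapd2, a condensin I subunit, averaged 12.5 ± 3.01 FPKM in cKO and 14.7 ± 2.14 FPKM in WT (SD, n = 3 each). Its partners Ncapg and Smc2 had log2 fold changes of −0.07 and −0.05. Mean levels of the condensin I subunits were 37.3 FPKM for Smc4, 27.8 for Ncapg, 27.3 for Smc2 and 13.6 for Ncapd2 over the 6 libraries.

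Mitotic kinases and the chromosomal passenger complex, which corrects faulty spindle attachments, had 5 estimates above 0 and 1 below, but 1 above and 5 below with TPM scaling. TPM moved the median over all tested genes to −0.08, and against that median the counts were again 5 above and 1 below. Aurkb, the kinase of that complex, was at 5.52, 9.17 and 7.04 FPKM in the cKO ovaries, against 7.93, 9.9998 and 8.39 FPKM in the WT ovaries. Only cKO replicate 2 reached into the WT range, and the log2 fold change was −0.26 (95% interval −0.69 to 0.16), the lowest of the set. Cdca8 (borealin), a scaffold of the same complex, was at 25.8, 39.2 and 32.01 FPKM in the cKO ovaries, against 26.4, 29.5 and 35.2 FPKM in the WT ovaries, with cKO replicate 2 highest and cKO replicate 1 lowest. The scaffold genes Incenp and Birc5 (survivin) had log2 fold changes of 0.06 and 0.14, so within the complex 3 estimates were above 0 and Aurkb below it, none of them past the test. Aurkb was also the lowest member of the complex by level, at a mean of 8.01 FPKM beside 24.5 for Birc5, 29.9 for Incenp and 31.4 for Cdca8. Plk1, a kinase of mitotic entry, averaged 15.7 ± 3.03 FPKM in cKO and 15.2 ± 3.13 FPKM in WT. Aurka, the Aurora kinase of spindle poles, averaged 10.8 ± 2.11 FPKM in cKO and 10.2 ± 1.80 FPKM in WT (SD, n = 3 each for both genes).

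Among spindle checkpoint kinases, which hold back anaphase until chromosomes are attached, all 3 estimates were below 0, but 1 of 3 with voom or quantile scaling. Against the median over all tested genes, 3 of 3 were lower with voom and 1 of 3 with quantile scaling. Bub1 was at 21.7, 21.9 and 21.1 FPKM in the cKO ovaries, against 18.7, 20.9 and 26.7 FPKM in the WT ovaries. Bub1b (BubR1) was at 9.91, 12.6 and 11.6 FPKM in the cKO ovaries, against 11.6, 14.1 and 12.6 FPKM in the WT ovaries, and in both genes the groups overlapped. The log2 fold changes were −0.02 for Bub1, −0.16 (95% interval −0.45 to 0.14) for Bub1b and −0.01 for Ttk (MPS1).

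Ube2c had the highest level of the set. It is the ubiquitin-conjugating enzyme that works with the anaphase-promoting complex to degrade cyclin B, and its gene model is chromosome 2, bases 164611849 to 164614822, plus strand of GRCm39. Ube2c was at 148, 223 and 152 FPKM in the cKO ovaries, against 109.6, 138 and 185 FPKM in the WT ovaries. WT replicate 1 was lowest and cKO replicate 2 highest, with a log2 fold change of 0.28 (95% interval −0.27 to 0.84). Cdc20, the activator of the same complex, was at 15.3, 21.5 and 21.3 FPKM in the cKO ovaries, against 17.5, 23.6 and 22.5 FPKM in the WT ovaries, with a log2 fold change of −0.13 (95% interval −0.54 to 0.28). The estimates of this pair thus had opposite signs, and neither passed the test.

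Kinetochore genes, which join chromosomes to microtubules, were between 9.90 and 16.1 FPKM on average. Cenpa, the histone H3 variant of centromeres, was at 13.2, 20.2 and 15.9 FPKM in the cKO ovaries, against 15.1, 14.9 and 17.6 FPKM in the WT ovaries. Nuf2 was at 11.6, 14.3 and 12.01 FPKM in the cKO ovaries, against 12.3, 14.2 and 14.98 FPKM in the WT ovaries, and Ndc80, its partner in the microtubule-binding complex, averaged 15.4 ± 3.43 FPKM in cKO and 13.8 ± 2.45 FPKM in WT (SD, n = 3 each). Log2 fold changes were 0.03 for Cenpa, −0.12 for Nuf2, 0.14 for Ndc80, −0.01 for the motor Cenpe and 0.07 for Cenpf. The groups overlapped in all 5.

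Spindle motors and microtubule proteins also overlapped in every case. Tpx2, which activates Aurora A and nucleates microtubules, was at 17.1, 20.2 and 18.9 FPKM in the cKO ovaries, against 16.98, 18.9 and 21.4 FPKM in the WT ovaries, a highest library 1.26 times the lowest. Kif2c (MCAK), a microtubule depolymerase, was at 10.4, 13.1 and 11.1 FPKM in the cKO ovaries, against 8.68, 11.8 and 11.5 FPKM in the WT ovaries. Nusap1, a microtubule bundler, was at 10.6, 22.5 and 12.3 FPKM in the cKO ovaries, against 9.61, 15.9 and 14.6 FPKM in the WT ovaries, again with cKO replicate 2 at the top. Log2 fold changes of the 6 genes ran from −0.08 for Kif11, the motor that separates spindle poles, to 0.13 for Nusap1, with Kif4 at −0.01 and Hmmr at 0.04.

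Genes of the central spindle and cytokinesis had estimates below 0 in 6 of 7 cases. Under every scaling tried, each on the same libraries, 6 of 7 were below the median over all tested genes. Racgap1, a subunit of centralspindlin, had the smallest p of all 47 members. It was at 19.5, 25.3 and 22.9 FPKM in the cKO ovaries, against 26.98, 25.01 and 25.8 FPKM in the WT ovaries, with a log2 fold change of −0.20 (95% interval −0.47 to 0.07), and cKO replicate 2 lay inside the WT range. Kif23, the kinesin of centralspindlin, averaged 10.2 ± 2.01 FPKM in cKO and 11.9 ± 0.840 FPKM in WT (SD, n = 3 each). Ect2, the RhoGEF that centralspindlin recruits to start furrowing, was at 34.8, 34.5 and 41.6 FPKM in the cKO ovaries, against 33.1, 39.7 and 49.4 FPKM in the WT ovaries, with WT replicate 3 well above the rest. Prc1, which bundles midzone microtubules, had the one estimate above 0 (0.03). The contractile ring scaffold Anln and the kinesins Kif20a and Kif20b had log2 fold changes of −0.12, −0.16 and −0.07. Kif20a overlaps Brd8 and Cdc23 on the other strand, and in all 10 of the 47 members overlap an opposite-strand gene with a mean of at least 1 FPKM, which makes their values uncertain. The others are Aurka, Ccna2, Ccne2, Cdc20, Kif4, Mcm7, Ncapg, Nusap1 and Prc1. Ndc80 and Kif2c are uncertain in another way, since each has a transcribed pseudogene copy in the table. Pseudogenes related by annotation to Plk1 (Plk-ps1) and Prc1 (Gm13176) also had reads, with means of 1.50 and 0.875 FPKM.

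S-phase and M-phase genes ranked the libraries alike within each group. The mean log2(FPKM + 1) of the 11 S-phase genes was 4.13, 4.41 and 4.31 in the cKO libraries, against 4.14, 4.37 and 4.49 in the WT libraries. For the 34 M-phase genes it was 4.03, 4.37 and 4.14 in the cKO libraries, against 4.02, 4.27 and 4.36 in the WT libraries. In both lists replicate 1 was the lowest library of its group, with cKO replicate 2 and WT replicate 3 the highest of theirs, and the groups overlapped. The group means were 4.28 ± 0.15 in cKO and 4.33 ± 0.18 in WT for S-phase genes, and 4.18 ± 0.17 in cKO and 4.22 ± 0.18 in WT for M-phase genes (SD, n = 3 each). The differences of −0.05 and −0.04 were smaller than the SD of either group. The S-phase mean minus the M-phase mean was 0.10, 0.04 and 0.16 in the cKO libraries, against 0.12, 0.10 and 0.13 in the WT libraries, a difference of −0.01 between group means. The median log2 fold change was −0.06 for S-phase genes and −0.02 for M-phase genes.

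**Figure D3:**
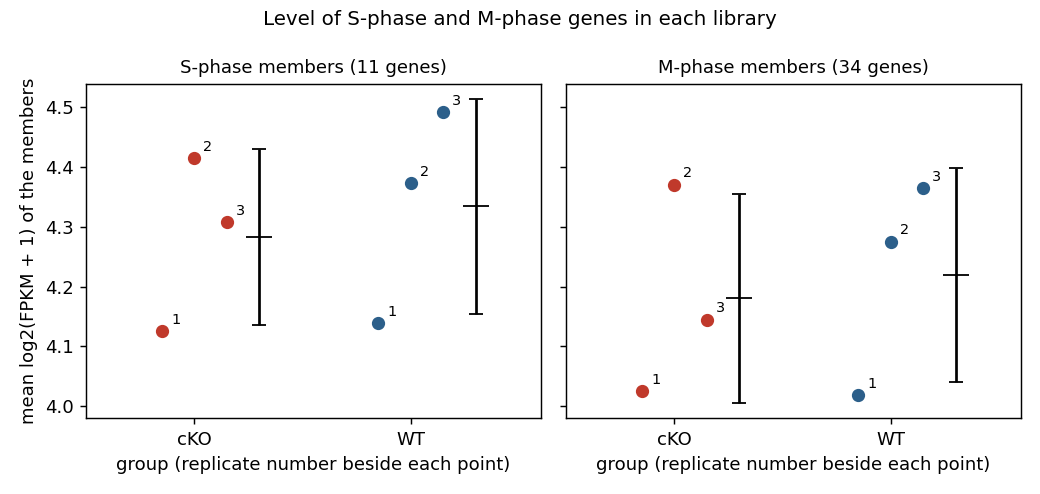
Mean log2(FPKM + 1) of the 11 S-phase genes (left) and the 34 M-phase genes (right) in each library, cKO in red and WT in blue, with the replicate number beside each point and the group mean ± SD as black bars. The libraries span 4.13 to 4.49 for S-phase and 4.02 to 4.37 for M-phase genes, and the bars of the groups overlap.

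The single libraries differed in which genes were highest. cKO replicate 2 was the highest library for 16 members, among them Mki67, Ccna2, Rrm2, Tyms, Nusap1, Ube2c and Cenpf, and for 21.5% of all tested genes. WT replicate 3 was highest for 19, among them 5 of the 6 MCM genes, Smc2, Smc4, Ncapg, Ect2 and Ttk, and for 19.1% of all tested genes. WT replicate 2 was highest for 11, among them Top2a, Aurkb and Cdc20, and for 11.7% of all tested genes. WT replicate 1 was highest for 1, Racgap1, and for 27.6% of all tested genes. cKO replicates 1 and 3 were highest for none of the 47, while among all tested genes they were highest for 9.71% and 10.3%. At the other end, WT replicate 1 was lowest for 22 members and cKO replicate 1 for 21, beside 28.5% and 12.4% of all tested genes. Mki67 in cKO replicate 2 was 2.13 times the mean of the other 5 libraries, Nusap1 1.79 times, Ccna2 1.61 times and Ube2c 1.52 times. These 4 of 47 members (8.51%) reached 1.5 times that mean, as did 5.62% of all tested genes. The MCM genes, by contrast, were at 0.958 to 1.04 times it.

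Marker genes of other cells also differed between these libraries. The 10 erythroid markers, globins and red cell membrane genes, summed to 700.02, 13718 and 1239 in cKO replicates 1, 2 and 3, against 406, 494 and 1216 in WT replicates 1, 2 and 3 (FPKM). All 10 were tested and cKO replicate 2 was far above the rest. The 10 oocyte markers summed to 843, 877 and 794 in cKO replicates 1, 2 and 3, against 624, 845 and 1219 in WT replicates 1, 2 and 3, with WT replicate 3 highest and WT replicate 1 lowest. For the 10 stroma markers the sums were 542, 417 and 476 in cKO replicates 1, 2 and 3, against 1439, 682 and 423 in WT replicates 1, 2 and 3, and for the 10 endothelial markers they were 66.7, 50.5 and 58.5 in cKO replicates 1, 2 and 3, against 193, 65.4 and 44.5 in WT replicates 1, 2 and 3, with WT replicate 1 highest in both. The 10 surface epithelium markers summed to 628, 648 and 752 in cKO replicates 1, 2 and 3, against 369, 803 and 649 in WT replicates 1, 2 and 3, with WT replicate 1 the lowest. The 9 pregranulosa markers summed to 445, 463 and 532 in cKO replicates 1, 2 and 3, against 604, 522 and 406 in WT replicates 1, 2 and 3, with WT replicate 1 the highest and WT replicate 3 the lowest. Pericyte and smooth muscle markers summed to 33.8, 26.03 and 31.4 in cKO replicates 1, 2 and 3, against 105, 29.3 and 22.1 in WT replicates 1, 2 and 3, highest in WT replicate 1. Macrophage markers summed to 35.5, 31.5 and 65.2 in cKO replicates 1, 2 and 3, against 42.9999, 34.01 and 34.2 in WT replicates 1, 2 and 3, highest in cKO replicate 3. That rank rested on Lyz2, at 37.6 FPKM in cKO replicate 3 and 6.91 to 11.6 FPKM in the other libraries. The mean log2(FPKM + 1) of the tested macrophage markers was highest in WT replicate 1. The 10 immediate-early genes, known to respond to tissue handling, summed to 57.7, 59.4 and 80.1 in cKO replicates 1, 2 and 3, against 197, 554 and 65.7 in WT replicates 1, 2 and 3. No marker of these lists was at 0 in all 6 libraries. Their part in the levels of cell cycle genes was not tested.

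**Figure D4:**
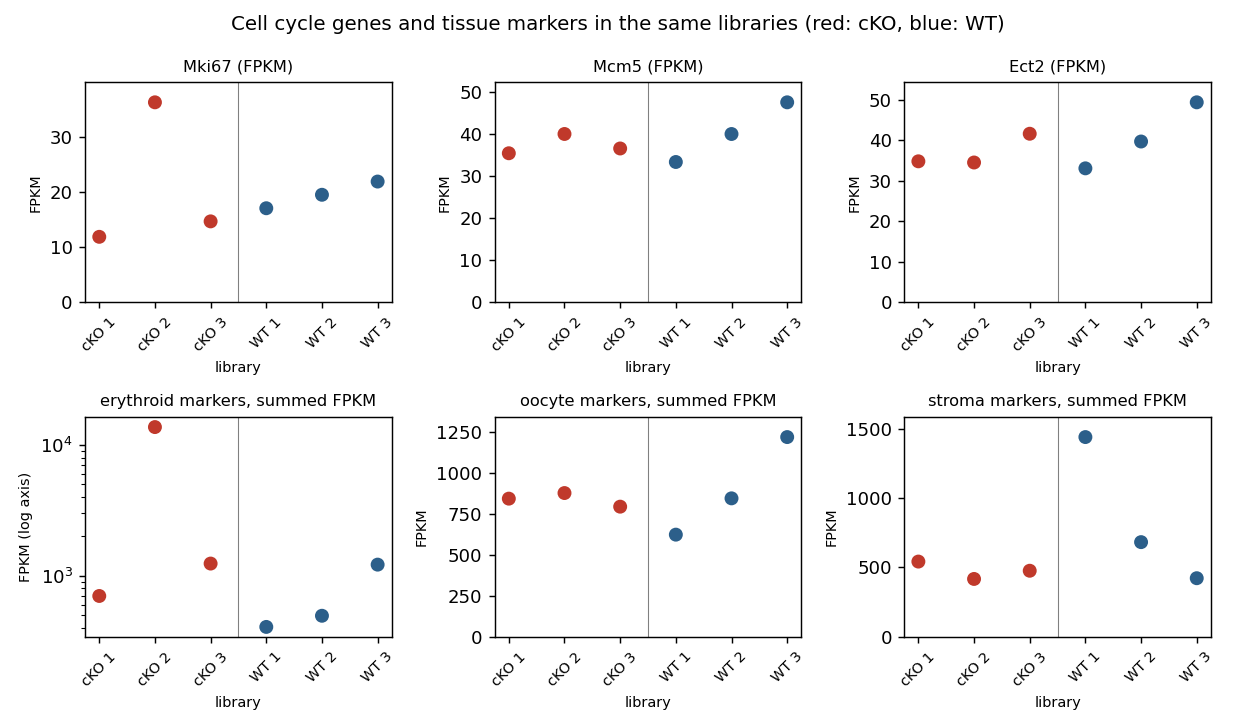
FPKM of Mki67, Mcm5 and Ect2 (top) and summed FPKM of 10 erythroid, 10 oocyte and 10 stroma markers (bottom) in each library, cKO in red at the left and WT in blue at the right, with a log axis for the erythroid sum. Mki67 and the erythroid sum are both highest in cKO replicate 2, Mcm5, Ect2 and the oocyte sum in WT replicate 3, and the stroma sum in WT replicate 1.

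With WT replicate 1 or cKO replicate 2 left out, more estimates were below 0. Those libraries were among the lowest of the WT group and the highest of the cKO group for these genes, so leaving them out moves the estimates downward by construction. Without WT replicate 1, 43 of 47 estimates were below 0, against 50.8% of all tested genes, and 2 members, Rrm1 and Kif20b, had an unadjusted limma p under 0.05 and were lower in cKO, against 1.85% of all tested genes. Without cKO replicate 2, 42 of 47 were below 0, against 52.7% of all tested genes. Lower in cKO with an unadjusted limma p under 0.05 were 5 members, Mki67, Ccna2, Top2a, Aurkb and Kif23, against 0.61% of all tested genes. Without both, 46 of 47 were below 0, all but Ccne2, against 51.1% of all tested genes. Lower with an unadjusted limma p under 0.05 were then 8 members, those 5 with Ccne1, Kif11 and Nusap1, against 2.15% of all tested genes. In none of these fits did a member pass an adjusted p of 0.05 in limma. The smallest adjusted p was 0.887, for Mki67 without both libraries, with a log2 fold change of −0.61 (SE 0.15).

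The list means of S-phase and M-phase genes moved by similar amounts in these fits. The difference of list means, cKO minus WT, was −0.15 for S-phase and −0.14 for M-phase genes without WT replicate 1, and −0.12 and −0.13 without cKO replicate 2. Without both it was −0.22 and −0.23, with medians over the members of −0.19 and −0.23 beside −0.003 over all tested genes. By single genes, cKO replicates 1 and 3 were both below all 3 WT libraries for 12 of 47 members, where 5.73% of all tested genes were. These were Ccna2, Mki67, Top2a, Smc4, Ncapd2, Aurkb, Nuf2, Kif11, Kif23, Racgap1, Anln and Kif20a, that is 0 of 11 S-phase and 10 of 34 M-phase genes with both S to M markers. The count leaves out cKO replicate 2, the highest library of its group in both list means, which raises it by construction. The split between S-phase and M-phase genes was not tested. With WT replicate 3 left out instead, the highest WT library, most estimates were above 0, with 17 of 47 below 0, against 49% of all tested genes, and medians of 0.03 for S-phase and 0.06 for M-phase genes. Without cKO replicate 1 the median was −0.02 for S-phase and 0.002 for M-phase genes. The direction of the set as a whole therefore rested on single libraries.

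**Figure D5:**
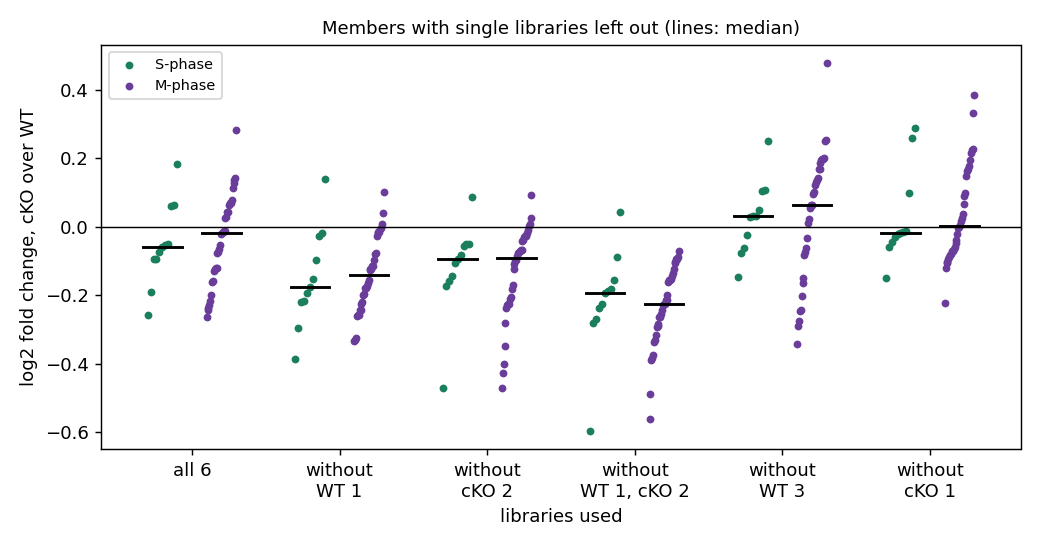
Log2 fold change, cKO over WT, of each S-phase gene (green) and M-phase gene (purple) with all 6 libraries and with 1 or 2 libraries left out; black lines are medians. The medians are −0.19 and −0.23 without both WT replicate 1 and cKO replicate 2, and 0.03 and 0.06 without WT replicate 3.

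Further cell cycle genes, listed by function, were read from the fit on all 6 libraries. Their values are not given here with WT replicate 1 or cKO replicate 2 left out, though some rest on these libraries. Of 17 genes of origin licensing and firing, limma called 0 in either direction, 0 had an unadjusted p under 0.05, and the median log2 fold change was −0.003. The smallest unadjusted limma p among them belonged to Orc3, an origin recognition subunit. It was at 17.5, 15.9 and 16.9 FPKM in the cKO ovaries, against 18.6, 18.2 and 19.3 FPKM in the WT ovaries. Its groups did not overlap, 1 of 17 in the list, where 3.67% of all tested genes were lower in cKO without overlap. Next came Cdc7, the kinase that fires origins, with a log2 fold change of 0.15. For 28 replication fork genes the counts were also 0 at either limit, with a median of −0.02. Groups did not overlap for 1 of the 28, higher in cKO, against 4.2% of all tested genes. Pcna, the sliding clamp of DNA polymerases, was at 84.7, 137 and 100.4 FPKM in the cKO ovaries, against 84.1, 122 and 132 FPKM in the WT ovaries, with cKO replicate 2 highest and WT replicate 1 lowest. Rpa3, a subunit that coats single-stranded DNA, was at 35.3, 38.5 and 33.3 FPKM in the cKO ovaries, against 26.3, 26.99 and 34.2 FPKM in the WT ovaries, with a log2 fold change of 0.29 (95% interval −0.01 to 0.59), and Pole, the leading-strand polymerase, had one of −0.21.

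Further genes of mitotic entry, spindle and division numbered 44, of which 0 passed at either limit, with a median of 0.01. Groups did not overlap for 2 of the 44, both higher in cKO, against 4.2% of all tested genes. Cdk1, the mitotic kinase, averaged 21.7 ± 3.802 FPKM in cKO and 20.8 ± 2.67 FPKM in WT (SD, n = 3 each). Its cyclin Ccnb1 averaged 21.7 ± 5.32 FPKM in cKO and 21.99 ± 3.78 FPKM in WT. Cks2, a CDK1 adaptor, was at 164, 239 and 140.2 FPKM in the cKO ovaries, against 95.3, 121 and 167 FPKM in the WT ovaries, with a log2 fold change of 0.50 (95% interval −0.11 to 1.12), and Pttg1 (securin) had one of 0.16. Of 18 G1 cyclin, kinase and E2F genes 0 passed at either limit, with a median of −0.04. The smallest p values there were those of the G1 kinase Cdk6, with a log2 fold change of −0.23 (95% interval −0.56 to 0.10), and the repressor E2f7, with one of −0.24 (95% interval −0.64 to 0.15).

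Of 15 inhibitors of the cell cycle, 14 were tested, 0 passed at an adjusted p under 0.05, and 2 had an unadjusted limma p under 0.05, both higher in cKO, where 1.89% of all tested genes were. Cdkn1a (p21), a p53-induced CDK inhibitor, was at 8.08, 6.19 and 7.90 FPKM in the cKO ovaries, against 4.23, 6.19 and 5.10 FPKM in the WT ovaries, and only WT replicate 2 reached the lowest cKO library. Its log2 fold change was 0.45 (95% interval 0.07 to 0.82). Cdkn1c (p57), an imprinted CDK inhibitor, was at 94.4, 98.2 and 106 FPKM in the cKO ovaries, against 81.5, 80.9 and 87.6 FPKM in the WT ovaries, with no overlap, as in 4.2% of all tested genes in that direction. Its log2 fold change was 0.25 (95% interval 0.03 to 0.47). Both had an adjusted limma p of 0.955. Cdkn1b (p27), which holds pregranulosa cells of primordial follicles out of the cycle, averaged 99.4 ± 14.3 FPKM in cKO and 109.9 ± 14.02 FPKM in WT (SD, n = 3 each). The median of the list was −0.09. In the same list, 1 gene was lower in cKO without overlap, against 3.67% of all tested genes.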

How the data were processed

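Total RNA of 6 ovary samples at 1 dpp was sequenced, per the labels, and groups and replicate numbers came from the sample titles. The authors deposited FPKM values with a gene length and GRCm39 coordinates. Per the submitters' processing notes, HISAT2 2.0.5 was used, and mm10 and GRCm39 are the builds they list. Not given in the sources used here: the counting tool, its strand setting and the annotation release. Overlapping genes and near-identical copies may therefore share reads. FPKM times gene length, divided by one step per library, gave whole reads within 0.05 for 100% of values up to 2000 reads. A single read was worth 0.0512 to 0.0594 FPKM on a gene of 1 kilobase, and less on a longer gene.

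Genes with at least 1 FPKM in at least 3 of the 6 samples (14589) were tested as log2(FPKM + 1) with limma 3.58.1 in R 4.3.3 (eBayes with trend, two-sided, Benjamini-Hochberg adjustment over all tested genes, threshold 0.05), which was tested on simulated data. List means are means of log2(FPKM + 1), described without a test. Members, roles, pathway and marker lists and the libraries left out were chosen with earlier results of these data known. All 47 members may be named. Every sample's value is given for the highest and the smallest-p member of each role; other genes follow the pathway lists, 2 with the smallest p each, with Pcna, Ccnb1, Cdk1, Cdkn1a and Cdkn1b. A few further members are given in full because of the pattern of their values. Alternatives were other pseudocounts, filters and scalings, a replicate block, voom on the recovered reads, and leaving out libraries.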

Additional observations from a re-analysis of the deposited data

How the results depend on the processing

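In every setting run, 0 members passed an adjusted p under 0.05 in limma. Over all tested genes the count was 0, or 0 to 1 with single libraries left out and 1 without WT replicate 1 and cKO replicate 2. The count of members with an unadjusted p under 0.05, 0 with all libraries, was 1 after rescaling to TPM (Racgap1), 0 to 5 with single libraries left out, and 8 without WT replicate 1 and cKO replicate 2. The S-phase difference of list means (−0.05) was −0.15 to 0.0269 with single libraries left out and −0.22 without both; the M-phase difference (−0.04) was −0.14 to 0.0381 and −0.23. Fits with 2 libraries in a group rest on few degrees of freedom. TPM put 41 of 47 estimates below 0 and voom 26, while the median over all tested genes moved to −0.08 and 0.03. Against that median, 31 of 47 were lower with TPM, voom and median-of-ratios scaling, as in the reported fit, and 27 with quantile scaling. Deviations from group means of the same-numbered libraries correlated at 0.22, 0.01 and −0.03, and not every library correlated best with its own number. Deviations of 3 libraries sum to 0 in each group, so these values cannot show whether replicate numbers pair the samples. With the replicate block, members past an unadjusted p of 0.05 stayed at 0, and genes of the whole table past it numbered 432 instead of 443. With 3 samples a group, the 95% interval of a log2 fold change reached 0.37 to either side in the median member, less in some members and more in others.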

Other observations

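Some members have transcribed copies in the table. The pseudogene 2700099C18Rik, which its table annotation relates to Ndc80, was at 12.7, 13.7 and 9.36 FPKM in the cKO ovaries, against 11.5, 12.5 and 14.1 FPKM in the WT ovaries, beside 15.1, 18.98 and 12.1 FPKM in the cKO ovaries, against 11.2, 14.1 and 16.02 FPKM in the WT ovaries for Ndc80 itself. Gm4961, related in the same way to Kif2c, was at 4.37, 3.49 and 4.95 FPKM in the cKO ovaries, against 3.32, 4.07 and 5.62 FPKM in the WT ovaries. The counting of reads that match both copies is not known here, so the split between each gene and its copy is uncertain. These copies were named after their values were seen.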
